A study of Homo sapiens with 7 samples.

Results

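Stop codon peaks of N6-methyladenosine (m6A) that lie in exons of 1000 nt or more were chosen by 2 columns of the deposited table, the segment given to each peak and the length of its exon. They number 2292 of the 3432 stop codon peaks (66.8%, 95% Wilson interval 65.2 to 68.3%) and 17.9% of the 12769 peaks in all, and lie on 2203 transcripts of 2198 gene symbols. The study mapped m6A in untreated cells labelled HepG2, a hepatocellular carcinoma line, with 4 libraries immunoprecipitated with an anti-m6A antibody and 3 input libraries. Poly(A)-selected RNA had been broken into fragments of about 100 nt. All 7 libraries stand behind 1 table, so replicate error, depth per library and a test over samples could not be had. The values below are therefore descriptions. Intervals are 95% and cover counting error alone (Wilson for shares, order statistics for medians), and peaks are not replicates.

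m6A is written on messenger RNA as it is made, by a complex built on METTL3 and METTL14, mostly at the consensus RRACH, in which R stands for either purine and H for any base but G. YTH domain proteins read it and speed decay or alter translation. Its best known landmark is the stop codon, which in most human genes lies in the last exon, the one that also carries the 3' untranslated region (3' UTR). Exons are bound near their splice junctions by the exon junction complex, and long exons, the last one above all, leave wide stretches free of junctions.

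The label HepG2 did not go with the expression of the defining hepatocyte genes. The table ranks transcripts by an expression quantile from 0 to 1, and its lowest value, 0.314, is shared by 8139 transcripts. Of 13 hepatocyte markers, 7 sat at that lowest value, among them ALB, AFP, TTR, APOB and SERPINA1, and FOXA1 at 0.834 was the highest. Of 4 epithelial markers, the keratins KRT8 and KRT18 stood at 0.996 and 0.992, but EPCAM at 0.498 and CDH1 at 0.368. Of 5 markers of ovarian or Muellerian epithelium, MSLN stood at 0.968 (3 peaks) and MUC16 at 0.667 (14 peaks). The other 3 had no peak, with PAX8 at 0.496 and both WT1 (0.333) and ESR1 (0.317) close to the lowest value. The blood marker PTPRC and the fibroblast marker COL1A2 were at the lowest value, and the fibroblast marker COL1A1 was at 0.782. The peaks are therefore those of cells labelled HepG2, and what the missing hepatocyte genes mean for them was not tested. Of 24 plasma protein genes, 10 were above the lowest quantile, 1 had any peak and 0 had a stop codon peak in a long exon. Over all gene symbols 29.1% had any peak and 8.89% a stop codon peak in a long exon.

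The sequence that such peaks sit on could be read where the transcript of the table matched a GENCODE transcript exactly, which held for 220 of the 2292 peaks (9.60%). The matched peaks had a median score of 3.60 and a median exon length of 2318 nt, against 3.51 and 2132 nt in the whole set. The stretches below are from the GENCODE release 29 transcripts, read on the transcript strand from the 5' to the 3' end, at the 12 highest-scoring of these peaks with RRACH in reach. They are shown because they let the motif be seen in its sequence. The stop codon falls inside the printed stretch in ANKIB1 and SETD5 alone. In the others it lies outside, and a triplet that reads like it is not the stop codon. Capitals mark the RRACH nearest to the listed peak position.
ANKIB1: tacatttagtgtGAACTgcacacatctggg
ATP11A: ccctggccgcctGGACCcagcactgtggtt
RPUSD4: gcttttaatggaGAACAaagtctatttact
GLTSCR1: ccgaagacgccgGGACAgtcgggtgtccgc
GOLGA3: ggcgacccacagAGACAcagtcagagcagg
CHD1: agatctccatttGAACAttcagttgaacac
KRT80: agaagagaggcaAAACCtgatattgaactg
MEX3A: cttgtgccctgcGGACAcaacctgttctgc
RNF20: tacctttcctccAGACTttacttccaggct
ZBTB6: aagcacacttcaGGACCacttgaacataca
NRP2: attaccctcctaGGACCgcggtggctaagt
SETD5: aagactcagacgGGACTttcctagggcttc

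In GRCh38 these stretches lie in the last exon of each gene. Those on the plus strand are ANKIB1 at chr7:92398936-92398965, ATP11A at chr13:112882161-112882190, GLTSCR1 at chr19:47702450-47702479 and RNF20 at chr9:101562535-101562564. NRP2 at chr2:205795244-205795273 and SETD5 at chr3:9476068-9476097 are on the plus strand as well. Those on the minus strand are RPUSD4 at chr11:126203207-126203236, GOLGA3 at chr12:132773132-132773161 and CHD1 at chr5:98856422-98856451. KRT80 at chr12:52171277-52171306, MEX3A at chr1:156076667-156076696 and ZBTB6 at chr9:122910946-122910975 complete them. In 7 of the 12 the nearest RRACH lay downstream of the first base of the stop codon and in 5 upstream. In ANKIB1, an ankyrin repeat protein (score 7.15), the RRACH overlapped the stop codon TGA itself. In SETD5, a SET domain protein (score 5.44), the central A of the RRACH lay 1 nt past the listed peak position and 7 nt before the first base of the stop codon TAG. ATP11A, a lipid flippase (score 6.28), and the bromodomain partner protein GLTSCR1 (5.91) had a single RRACH within 50 nt, whereas the keratin KRT80 (5.69) had 5.

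Of the 220 matched peaks 14 had no RRACH within 50 nt, and the 3 with the highest scores are shown for contrast, as 30 nt around the listed position.
POLR1A: tggatttttatcaaggtttaccaagtcttc
MAST2: gacagaaggcaggacgttccatgccgaggc
ZFYVE20: ggggcactgactgaccagcagtggagaggg

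POLR1A encodes the largest subunit of RNA polymerase I (chr2:86027171-86027200, minus strand, score 5.83). Its listed position lay 239 nt past the stop codon of the GENCODE transcript, the only matched member beyond 200 nt. MAST2, a microtubule-associated kinase (chr1:46035923-46035952, plus strand), scored 4.77, and the endosomal protein ZFYVE20 (chr3:15073766-15073795, minus strand) 4.69. Peaks without the motif thus reached scores above the median of the whole set.

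The score is the authors' own, on a scale that is not stated, and no listed peak is under 2.00. Stop codon peaks in long exons had a median score of 3.51 (interval 3.46 to 3.59, quartiles 2.76 and 4.37, n = 2292). Stop codon peaks in exons under 1000 nt had a median of 3.32 (3.22 to 3.38, n = 1140). The median was 3.27 for 3' UTR peaks in exons of 2000 nt or more (n = 1354), 3.12 for coding sequence peaks in exons of 1500 nt or more (n = 2087) and 3.15 for all 12769 peaks. A score of 5 or more was given to 280 of the 2292 (12.2%, 10.9 to 13.6%), against 98 of 1140 in shorter exons (8.60%, 7.11 to 10.4%) and 7.24% of all listed peaks. The very top of the scale did not follow this order. From 7 to below 7.5 there were 3 peaks in long exons (0.131%) and 4 in shorter ones (0.351%), and from 7.5 upwards 1 in each.

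**Figure D1:**
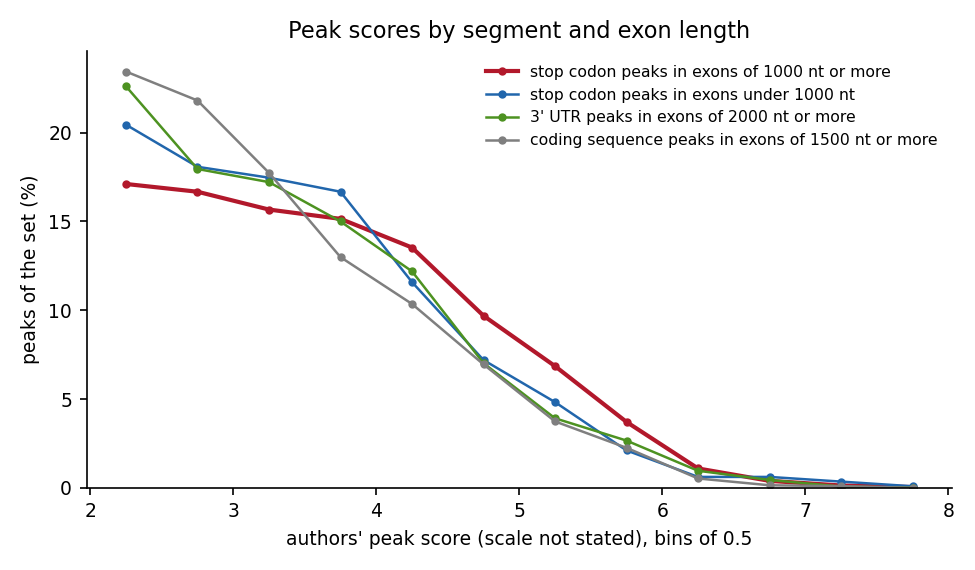
Percent of peaks (y axis) in bins of 0.5 of the authors' score (x axis) for stop codon peaks in exons of 1000 nt or more, stop codon peaks in shorter exons, 3' UTR peaks in exons of 2000 nt or more and coding sequence peaks in exons of 1500 nt or more. The curve of the stop codon peaks in long exons lies lowest at scores under 3 and highest between 4 and 6.

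The highest score belonged to ITGA6, the integrin alpha-6 subunit of laminin receptors, at 7.73 in exon 25 (2363 nt, position 3636 of the transcript, chromosome 2, 173000560 to 173079427, plus strand). All coordinates of genes are the table's, in a build that the labels and headers do not name. ITGA6 had a further peak of 3.13 at the transcript start. E2F3, a transcription factor of the G1 to S transition, followed at 7.31 in exon 7 (3547 nt, chromosome 6, 20510116 to 20601924, plus strand). A 3' UTR peak of 5.36 lay in the same exon of E2F3, at position 2005 against 1620. ANKIB1 came next at 7.15 with a coding sequence peak of 4.02 in the same exon 20 (3173 nt). GFM1, a mitochondrial translation elongation factor, had 7.03 in exon 18 (1236 nt) and a start peak of 2.28.

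ABL2, a cytoplasmic tyrosine kinase, had 6.77 in exon 12, which is 10115 nt long (chromosome 1, 177335085 to 177378834, minus strand), and a coding sequence peak of 5.59 in that exon. TANC2, a synaptic scaffold protein, also reached 6.77, in exon 25 of 7708 nt. TANC2 carried 7 peaks, 6 of them in that exon, and the other 6 scored from 2.42 to 4.50. SMAD2, a signal transducer of TGF-beta, had 6.68 in exon 11 (8856 nt, chromosome 18, 43613464 to 43711510, minus strand). MAPKAPK2, a kinase downstream of p38, had 6.67 and the guanine nucleotide exchange factor TRIO 6.67 in exon 57 (1470 nt). MYC, the growth-promoting transcription factor, had 6.76 in exon 3, only 1032 nt long, at an expression quantile of 0.997. MTPAP, the mitochondrial poly(A) polymerase, had 6.57 at a quantile of 0.605, and C14orf119 6.52. In MYC, SMAD2 and MTPAP the stop codon peak was the only peak of the transcript. Next to MYC, the most expressed genes with no other peak were the stress-induced mTOR inhibitor DDIT4 (score 4.08) and the tubulin TUBB (2.18), both at a quantile of 0.997.

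Within the set, scores were higher in longer exons. The median was 3.15 in exons from 1000 to below 1500 nt (interval 3.03 to 3.29, n = 604), 3.46 from 1500 to below 2000 nt (3.27 to 3.59, n = 447) and 3.56 from 2000 to below 3000 nt (3.44 to 3.71, n = 588). It was 3.71 from 3000 to below 4000 nt (3.55 to 3.84, n = 308), 3.98 from 4000 to below 6000 nt (3.76 to 4.12, n = 252) and 3.94 in exons of 6000 nt or longer (3.68 to 4.32, n = 93). Across the 2292 peaks Spearman's correlation of score and exon length was 0.19. A score of 5 or more was found in 9.11% of peaks in the shortest of these bins (7.06 to 11.7%) and in 22.2% from 4000 to below 6000 nt (17.5 to 27.8%). The 1000 nt limit was no step in this order. Exons from 500 to below 1000 nt had a median of 3.46 (3.34 to 3.56, n = 750), above the bin just inside the limit, and exons under 500 nt 3.09 (3.00 to 3.22, n = 390).

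**Figure D2:**
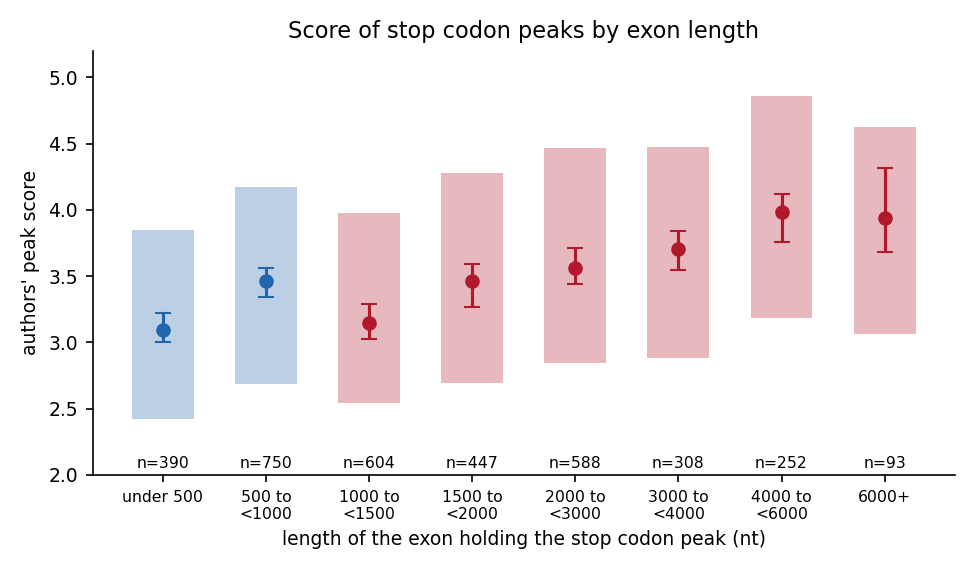
Authors' score of stop codon peaks (y axis, from 2) by length of the exon in nt (x axis). Points are medians with 95% order-statistic intervals and boxes span the quartiles, in blue under 1000 nt and in red at 1000 nt or longer. The red medians climb to 3.98 in exons from 4000 to below 6000 nt, while the first red one lies under the second blue one.

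Expression differed along the same axis. The median quantile was 0.822 in exons from 1000 to below 1500 nt and 0.681 at 6000 nt or longer. At quantiles up to 0.7 the median score was 3.07 from 1000 to below 1500 nt (n = 108), 3.50 from 1500 to below 2500 nt, 3.75 from 2500 to below 4000 nt and 4.0 at 4000 nt or longer (n = 172). At 0.7 to 0.85 the 4 medians were 3.15, 3.38, 3.71 and 3.95. Above 0.85 they were 3.18, 3.50, 3.58 and 3.81. At that level the intervals of the first and the last overlapped, at 3.02 to 3.42 (n = 248) and 3.08 to 4.07 (n = 37). Set against shorter exons at like expression, long exons had medians of 3.66 against 3.54 at quantiles up to 0.7, 3.50 against 3.38 at 0.7 to 0.85 and 3.4 against 3.19 above 0.85. The intervals overlapped at each of these 3 levels, at 3.51 to 3.76 against 3.26 to 3.71, 3.39 to 3.61 against 3.24 to 3.54, and 3.25 to 3.54 against 3.05 to 3.32.

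The longest exons of all did not hold the highest scores. ONECUT2, a homeodomain transcription factor, had the longest, 14862 nt, with a stop codon peak of 2.41 and 3 peaks of its 3' UTR in that exon from 2.78 to 3.24. TNRC6B, a scaffold of microRNA silencing, had 4.25 in 12955 nt. The kinase HIPK2 had 3.39 in 11828 nt, UBN2 2.84 in 10450 nt and VISA (now MAVS), the antiviral signalling adaptor, 3.30 and 4.73 in 10433 nt. At the limit itself, ORAI1, the pore subunit of store-operated calcium channels, had 5.82 in an exon of 1000 nt. At the same length were PKP4 (5.28), PSMD7 (2.76) and PEBP1 (2.08), and the receptor kinase DDR1 had 4.59 at 1001 nt. Just under it stood IER3 (3.05, 998 nt), NFS1 (4.40, 997 nt), UFSP1 (2.39, 996 nt) and FKBP10 (3.63, 995 nt).

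Scores also went with the number of the exon that held the peak, and that number had a Spearman's correlation of -0.024 with the length of the exon across the peaks. All 220 matched peaks lay in the last exon of their transcript. This did not hold for the whole set, as FOXO1 had its stop codon peak in exon 2 and 3' UTR peaks in exon 3. The 101 peaks in exon 1 had a median of 3.09 (2.87 to 3.36), those in exons 11 to 20 had 3.66 (3.54 to 3.77, n = 626) and those in exon 21 or later 3.93 (3.71 to 4.09, n = 324). Among the peaks in exon 1 were CEBPA, a transcription factor of hepatocyte and myeloid differentiation (5.53), the Wnt receptor FZD1 (5.09) and thrombomodulin, THBD (5.03). CR593819 (5.64) and C8orf4 (4.89) complete the 5 highest. THBD had 3 peaks in exon 1, of 5.00 in the coding sequence, 5.03 at the stop codon and 4.29 in the 3' UTR.

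Around the stop codon the peaks were spread evenly to both sides. Over the 220 matched peaks the listed position lay a median of 2.5 nt downstream of the first base of the stop codon (interval -14 to 17), and the quartiles were -78 and 74.5 nt. Of them 113 lay at or downstream of that base (51.4%, 44.8 to 57.9%), and 145 within 100 nt of it (65.9%, 59.4 to 71.9%). The range is fixed by the segment, which takes in 200 nt to either side. In exons under 1000 nt the median was 57 nt downstream (interval 36 to 93) and 71 of 96 peaks lay downstream (74.0%, 64.4 to 81.7%). Neither interval of the long exons overlapped that of the shorter ones. The 96 matched peaks are a small part of the 1140 in shorter exons, and their median score was 3.03, against 3.32 for all 1140.

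**Figure D3:**
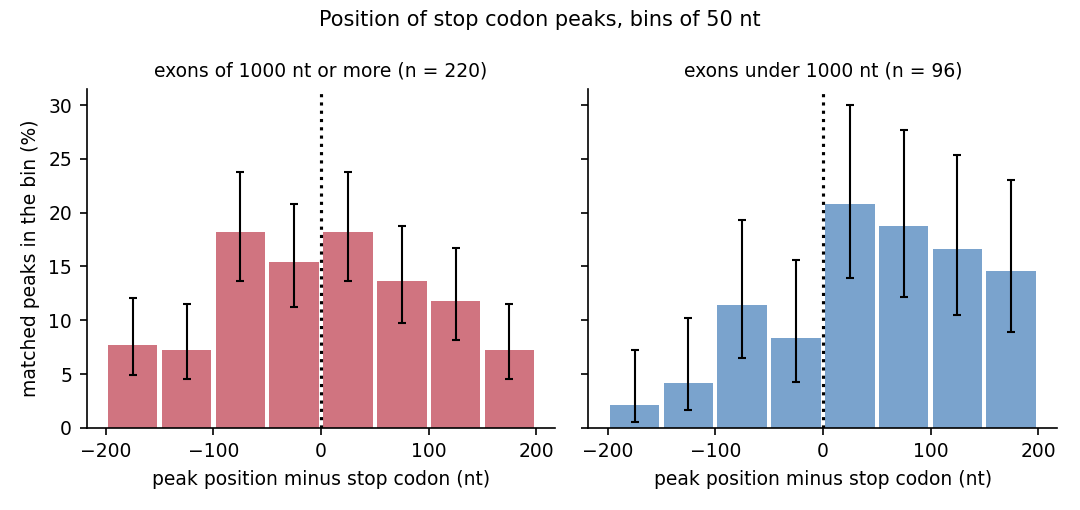
Percent of matched stop codon peaks (y axis) by position relative to the first base of the stop codon, in bins of 50 nt (x axis), for exons of 1000 nt or more (left, n = 220) and under 1000 nt (right, n = 96), with 95% Wilson intervals. The left histogram is highest from -100 to 100 nt, and the right one is highest downstream of the stop codon. Peaks beyond 200 nt, 1 on the left and 3 on the right, are not drawn.

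The side on which a peak lay went with the place of the stop codon in its exon, among matched peaks whose stop codon lay in the same last exon, exon 1 left out. Where the stop codon lay within 100 nt of the start of a last exon of 1000 nt or more, 20 of 24 peaks were downstream (83.3%, 64.1 to 93.3%), while 79.1% of the stretch open to them in that exon was downstream. At 100 to 200 nt it was 35 of 55 (63.6%, 50.4 to 75.1%) with 58.5% of the open stretch. At 200 to 400 nt it was 24 of 55 (43.6%, 31.4 to 56.7%) with 50.3%. Where more than 400 nt of exon preceded the stop codon, 25 of 75 peaks were downstream (33.3%, 23.7 to 44.6%), with 49.6% of the open stretch. In these exons most peaks thus lay in the end of the coding sequence. In shorter exons the counts were 21 of 21, 27 of 32, 15 of 24 and 4 of 12 over the same 4 classes. The open stretch downstream was 75.1, 57.3, 49.4 and 47.5% in these shorter exons. With the stop codon within 100 nt (84.5 to 100%) and at 100 to 200 nt (68.2 to 93.1%), the interval of the downstream share lay above the open stretch. Further from the exon start the interval took it in. In long exons the median score was 3.07 with the stop codon within 100 nt of the junction, 3.48 at 100 to 200 nt, 3.96 at 200 to 400 nt and 3.64 beyond. Of the 220 peaks 22 lay under 100 nt from the start of an exon other than the first.

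RRACH was found within 50 nt of 206 of the 220 matched peaks (93.6%, 89.6 to 96.2%). Windows of the same width on the same transcripts had it in 80.8% of cases 300 nt upstream (75.1 to 85.5%, n = 219) and in 75.6% 300 nt downstream (69.4 to 80.9%, n = 213). The pentamer GGACT was found near 66 (30%, 24.3 to 36.4%), against 11.4% of upstream (7.85 to 16.3%) and 8.45% of downstream windows (5.41 to 13.0%). Among the 206 peaks with RRACH in reach, the nearest one lay a median of 10 nt from the listed position, and within 20 nt in 154. The search ended at 50 nt, and no such distance was taken for the windows 300 nt away. The motif was found to both sides of the stop codon, with the nearest RRACH upstream in 104 of the 206 (50.5%, 43.7 to 57.2%). In shorter exons it was upstream in 26 of 91 (28.6%, 20.3 to 38.6%). The nearest RRACH was sought within 50 nt of the peak, so its side is tied to that of the peak and is no separate result.

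**Figure D4:**
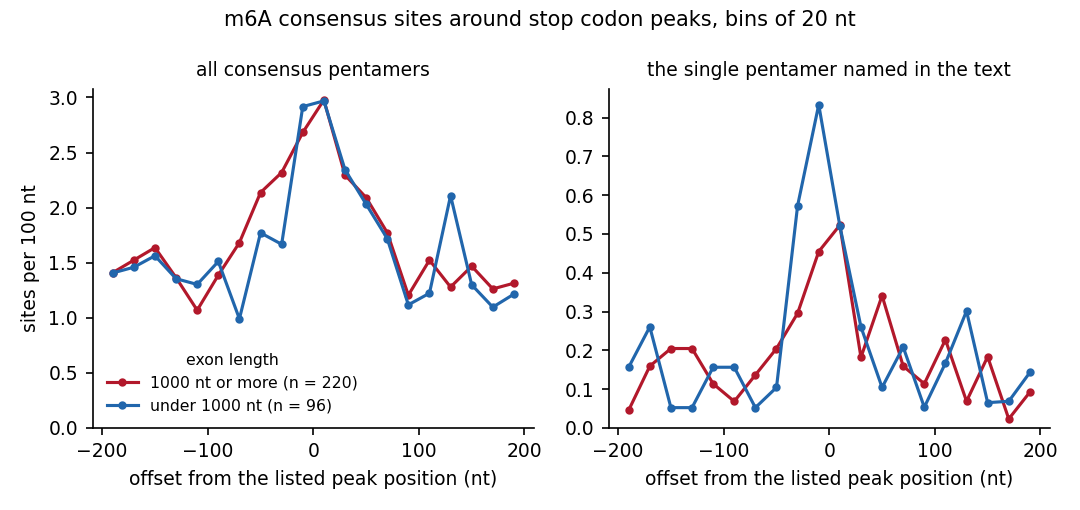
Sites per 100 nt (y axis) in bins of 20 nt around the listed peak position (x axis, negative upstream) for all RRACH pentamers (left) and GGACT alone (right), in exons of 1000 nt or more (n = 220) and under 1000 nt (n = 96). RRACH reaches 2.98 sites per 100 nt at the peak in long exons, against 1.26 to 1.52 at 100 to 200 nt downstream.

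Among the 12 RRACH pentamers GGACA was the most frequent, near 78 of the 220 peaks (35.5%, 29.4 to 42.0%), against 12.3% of the 432 windows 300 nt away. GGACT had the largest ratio to those windows, 3.01, followed by GGACA at 2.89, AGACT at 2.13 and GGACC at 2.04. AAACA was about as frequent at the peaks as away from them, at 10.9% against 11.1%. In shorter exons GGACT was found near 41 of 96 peaks (42.7%, 33.3 to 52.7%), and its interval overlapped that of the long exons. At least 2 RRACH lay within 50 nt of 175 of the 220 peaks (79.5%) and of 77 of 96 in shorter exons (80.2%). The share with GGACT was similar at low and high scores, with overlapping intervals. The pentamer was found near 30.3% of peaks with a score of 4 or more (21.1 to 41.3%, n = 76), 28.4% from 3 to below 4 (n = 81) and 31.7% under 3 (21.6 to 44.0%, n = 63). Peaks with RRACH had a median score of 3.62 (3.41 to 3.77, n = 206), and those without 3.25 (2.56 to 4.69, n = 14). The stop codon itself was TGA in 107 of 212 transcripts (50.5%), TAG in 60 (28.3%) and TAA in 45 (21.2%). In 94 transcripts with shorter exons it was TGA in 59.6%, TAG in 29.8% and TAA in 10.6%. The intervals of long and shorter exons overlapped for each codon, for TAA at 16.3 to 27.2% against 5.88 to 18.5%.

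Long last exons more often had a stop codon peak at all. Among 1717 expressed coding transcripts matched by symbol and span, with the stop codon in the last exon, 21.3% had one. With a last exon of 1000 nt or more it was 252 of 966 (26.1%, 23.4 to 28.9%), against 113 of 751 with a shorter one (15.0%, 12.7 to 17.8%). At expression quantiles up to 0.55 the shares were 2.87% of 349 (1.56 to 5.19%) against 0.380% of 263 (0.0672 to 2.12%). At 0.55 to 0.7 the share was 29.2% of 250 (23.9 to 35.1%) against 10.0% of 130 (5.94 to 16.4%). At 0.7 to 0.85 it was 48.9% of 225 (42.4 to 55.4%) against 19.7% of 157 (14.3 to 26.7%). Above 0.85 it was 41.5% of 142 (33.8 to 49.8%) against 33.8% of 201 (27.6 to 40.6%), and the intervals overlapped. The order was broken there by last exons from 500 to below 1000 nt, at 47.7% (38.4 to 57.0%), which stood above those from 1000 to below 2000 nt at 34.8% (25.7 to 45.2%). Very short last exons also leave less than the full 200 nt downstream of the stop codon, and their part in these shares was not tested.

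**Figure D5:**
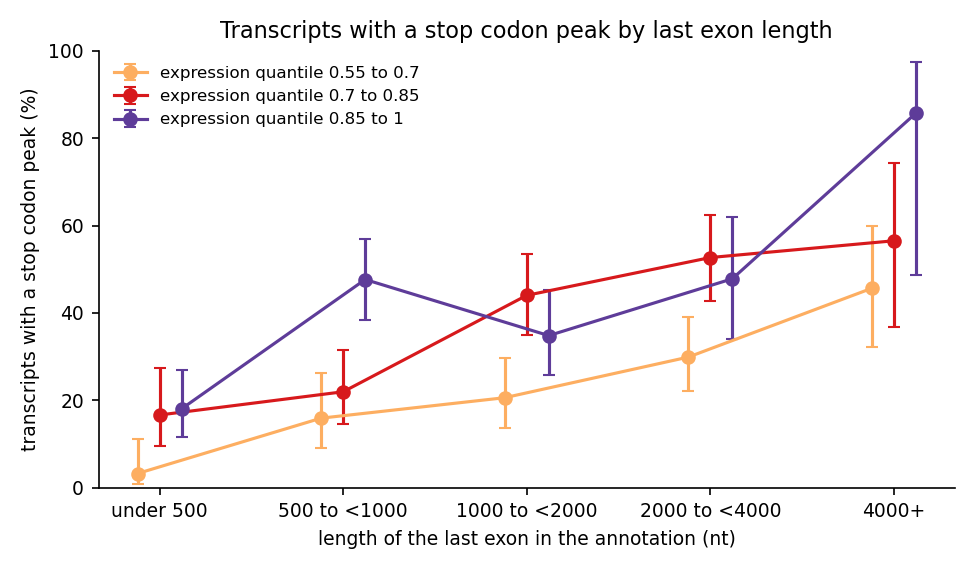
Percent of matched coding transcripts with a stop codon peak (y axis) by length of the last exon in nt (x axis), at 3 levels of expression quantile above 0.55, with 95% Wilson intervals. The share reaches 45.7% at 4000 nt or longer for quantiles of 0.55 to 0.7, against 3.28% under 500 nt.

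The transcripts stood somewhat lower in expression than transcripts with peaks as a whole. The median quantile of the 2203 was 0.774 (quartiles 0.680 and 0.861), against 0.872 for the 1113 with a stop codon peak in a shorter exon and 0.799 for all 7240 transcripts with a peak. Quantiles above 0.9 were reached by 17.1% of transcripts with a stop codon peak in a long exon. The share was 39.2% of those with one in a shorter exon and 24.5% of all transcripts with a peak.

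Most of these transcripts carried more than the 1 peak. A further peak was listed on 1426 of 2203 (64.7%, 62.7 to 66.7%), and 317 (14.4%) had 4 or more in all. A coding sequence peak was present on 750 (34.0%), a 3' UTR peak on 657 (29.8%), a start peak on 256 (11.6%) and a peak of the remaining 5' UTR on 78 (3.54%). A peak of another segment lay in the same exon in 944 (42.9%, 40.8 to 44.9%), in the 3' UTR in 650 and in the coding sequence in 346. That share was 32.2% in exons from 1000 to below 1500 nt (28.5 to 36.1%) and 50.9% at 4000 nt or longer (45.5 to 56.3%). A longer exon also has more room for peaks, and no share per nt was taken. The shares of this paragraph were not taken over all 7240 transcripts with a peak or the 1113 with a stop codon peak in a shorter exon. Whether any of them is particular to the set was therefore not tested.

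The stop codon peak more often had the higher score of 2. On 697 transcripts with a single long-exon stop codon peak and a single other peak, it had the higher score in 437 (62.7%, 59.0 to 66.2%), with a median difference of 0.43. It was higher in 166 of 272 beside a coding sequence peak (61.0%, 55.1 to 66.6%) and in 152 of 265 beside a 3' UTR peak (57.4%, 51.3 to 63.2%). Beside a start peak it was higher in 99 of 134 (73.9%, 65.9 to 80.6%). Stop codon peaks in shorter exons were higher than the other peak in 197 of 308 (64.0%, 58.5 to 69.1%).

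On 89 transcripts 2 stop codon peaks shared the segment, a median of 213 nt apart (22 to 371). The strongest such case was SOX13, a transcription factor, with 6.08 at position 2574 and 2.40 at position 2299. CRIM1, a transmembrane regulator of bone morphogenetic proteins, had 5.21 and 2.72, C5orf51 5.08 and 3.4, and CREB1, the cyclic AMP response factor, 5.04 and 2.13. DKFZp586D2223, with 5.04 and 2.81, ends at the same base as MED20, another gene of the set. There were 4 such shared transcript ends, where 2 symbols list peaks of what may be 1 exon.

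Gene groups differed in how many of their members had such a peak. The background was 2198 of 24721 gene symbols (8.89%), or 12.7% of the 17368 above the lowest expression quantile, and 29.1% of symbols had any peak. The groups differed in having any peak as well, from 37 of 39 chromatin regulators (94.9%) to 1 of 24 plasma protein genes (4.17%). Any peak was found in 34 of 37 ZBTB factors and 28 of 35 immediate early genes, so high shares below are not particular to stop codon peaks. The lists were written with earlier results of these data known, so their counts are descriptions. The rule asks for a long exon, so a share also depends on the exon lengths of a list's genes. The part of exon length in these shares was not tested. Immediate early genes, which respond to growth factors within minutes, stood highest with 21 of 35 (60.0%, 43.6 to 74.4%). Besides MYC they held the AP-1 subunits FOSL2 (4.73) and FOSB (4.63), the survival factor MCL1 (4.73) and the matricellular protein CTGF (4.36). Their median score was 3.35, against 3.51 for the whole set. Chromatin regulators had 17 of 39 (43.6%, 29.3 to 59.0%) and a median score of 4.07. They included the acetyltransferase CREBBP (5.96, exon of 4820 nt), the remodellers CHD1 (5.84) and CHD2 (5.09), MLL5 (5.34) and the methyltransferase WHSC1 (4.97).

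Most transcription factor families were above the background too. KLF and SP factors had 11 of 25 (44.0%, 26.7 to 62.9%), led by KLF9 (4.32) and KLF16 (3.92), and ZBTB factors 15 of 37 (40.5%, 26.3 to 56.5%), led by ZBTB6 (5.46) and ZBTB34 (5.40). SOX and FOX factors had 12 of 39 (30.8%), with FOXO1 at 4.79 and FOXA1 at 4.07 next to SOX13. HOX genes had 11 of 39 (28.2%), with HOXA13 at 4.37 and HOXB3 at 4.26, and the lowest median score of the lists, 2.66. ZNF zinc finger genes had 76 of 499 (15.2%, 12.3 to 18.6%), led by ZNF295 (5.88) and ZNF507 (5.48). The interval of the ZNF genes lay above the 8.89% of all gene symbols. Of the 499, 431 were above the lowest expression quantile. The 76 were all among them, since no transcript with such a peak had a quantile under 0.422. The count to set against the 12.7% of expressed symbols is thus 76 of 431. The median score of the ZNF peaks was 3.18.

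Signalling genes of the Wnt, Notch and TGF-beta pathways had 15 of 39 (38.5%, 24.9 to 54.1%) and a median of 3.81. They took in the ligand JAG2 (4.51), the receptor NOTCH2 (4.35, exon of 5142 nt) and the activin receptor ACVR2A (4.20) besides SMAD2 and FZD1. Growth factor receptors and the interleukin-6 pathway had 10 of 25 (40.0%, 23.4 to 59.3%), with EGFR at 4.36, FGFR3 at 4.30 and IRS1 at 3.85. In EGFR and NOTCH2 a 3' UTR peak of the same exon scored above the stop codon peak, at 6.10 and 6.64. Of the feedback inhibitors of the SOCS, DUSP and Sprouty families 6 of 24 had one (25%, 12 to 44.9%), led by the MAP kinase phosphatases DUSP5 (5.17) and DUSP1 (4.16). Genes of mRNA decay and microRNA silencing had 9 of 33 (27.3%), led by TNRC6B, the decapping factor DCP1A (4.12) and the deadenylase CNOT6 (4.04).

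In other groups the interval of the share with a stop codon peak in a long exon took in the background of 8.89% or lay under it. The shares of cell cycle genes and the m6A machinery stood above that background, on short lists with wide intervals. Cell cycle genes had 7 of 42 (16.7%, 8.32 to 30.6%), but with a median score of 4.48 over 7 peaks, from E2F3 to the phosphatase CDC25A (5.58), E2F2 (5.50) and the inhibitor CDKN2B (4.48). With exons of any length, 13 of the 42 had a stop codon peak, against 3307 of 24721 gene symbols. The m6A machinery had 3 of 20 (15.0%, 5.24 to 36.0%) although 16 of the 20 had some peak. These were the methyltransferase METT10D, now METTL16 (5.24), and the writer subunits RBM15B (4.35) and CBLL1 (2.26). Protocadherins had 3 of 37 (8.11%), led by PCDH10 (4.68), and PCDHB11 (2.88) and PCDHB13 (2.43) belong to a cluster of near-identical genes whose reads may not be told apart. Ribosomal protein genes had 0 of 80 (up to 4.58% by the Wilson interval), with 8 of the 80 carrying some peak and 2 a stop codon peak in a shorter exon.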

How the data were processed

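The deposited file was 1 table with a line per transcript, made by the authors from 4 m6A-immunoprecipitated and 3 input libraries. Per the file headers, it gives each transcript's expression quantile (a fraction) and, for each peak, its position, exon number, exon length, segment and score. The deposited score has no stated scale and was used only to rank and describe peaks. No source used here names the aligner, the peak caller or the build.

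Each transcript was looked up in GENCODE release 29. A match needed the same symbol (RefSeq synonyms allowed), chromosome, strand and genomic span in nt, and exons that agreed in number and length at every peak. This gave 655 transcripts with peaks and a complete coding sequence, of which 654 read a stop codon at the annotated place. None shared its start with GRCh38, so no table coordinate was read in that build. Shares of transcripts with a stop codon peak used 2742 coding transcripts matched by symbol and span alone, since exons without a peak could not be checked. A motif counted when its central A lay within 50 nt. Analysis used Python 3.11.15, pandas 2.3.3 and SciPy 1.17.1, and the motif and distance steps were tested on simulated data. Members and lists were chosen with earlier results of these data known. Named genes are the 12 highest scores, the 5 longest exons, the 5 peaks on either side of the 1000 nt limit, the 5 highest in exon 1, up to 5 transcripts with 2 members, up to 5 of each list, and the 3 most expressed and the 3 highest-scoring genes with no other peak. One gene named by this rule is not reported here.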

Additional observations from a re-analysis of the deposited data

How the results depend on the processing

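No paired analysis was possible because the table holds no value per library, and for the same reason no replicate could be left out. Of 54 recomputed values 32 stayed within the interval of the value given above or, for counts, within 1.5 times, and 22 did not. With exons of 2000 nt or more there were 1241 peaks, a median score of 3.74, 44.8% downstream of the stop codon, 70.6% of transcripts with a further peak and a median quantile of 0.747. With 700 nt the last 2 were 61.2% and 0.787. With scores of 3 or more there were 1518 peaks, with medians of 4.07 in long and 3.89 in shorter exons. Above a quantile of 0.9 there were 392 peaks, with medians of 3.33 in long and 3.09 in shorter exons, 76.6% with a further peak and a median quantile of 0.938. The 27 matched ones had RRACH in 96.3%, a median distance of 36 nt and 63.0% downstream. Within 25 nt RRACH was found near 80% and GGACT near 21.4%, and within 100 nt near 98.2% and 39.1%. Matching covers 9.60% of the peaks, and fragments of about 100 nt limit how finely a position can be read.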
